A study of Mus musculus with 20 samples.

Results

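Polyadenylated RNA of spleen CD4 T cells with a history of T-bet, the Th1 transcription factor, was compared between cells with and without present T-bet reporter signal. The mice were on a C57BL/6 background and carried a T-bet-ZsGreen-T2A-CreERT2 construct (called ZTCE) together with a Rosa26-loxP-STOP-loxP-tdTomato allele. In such mice the fluorescent protein ZsGreen reports present T-bet expression, and CreERT2, a Cre recombinase that works only in the presence of tamoxifen, switches on tdTomato for good in cells that expressed T-bet. All cells came from naive mice and were sorted as CD4+, CD44-high (antigen-experienced or memory-like) and CD25- (without the interleukin 2 receptor alpha chain), and all were tdTomato+. The ZsGreen+ group held 2 libraries of cells with present reporter signal. The ZsGreen- group held 2 libraries of cells with the tdTomato mark alone. These were 4 of the 20 libraries of the series and 4 of its 12 RNA libraries, chosen by their labels, not by any measured value. Age, sex, tamoxifen treatment and whether animals were pooled are not given in the sources used here. Nothing states that the 2 libraries of a group came from separate animals, so p-values measure the spread between these libraries, which may be technical.

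The T-box transcription factor T-bet is the product of Tbx21 and directs CD4 T cells towards the T helper 1 (Th1) programme of interferon gamma production, inflammatory chemokine receptors and, in cytotoxic lymphocytes, granule proteins. Cells that once expressed T-bet can lose it again, and reporter mice that record present and past expression separate such cells from those that still have it. Follicular helper T cells (Tfh), which help B cells in follicles and depend on the repressor Bcl6, and regulatory T cells (Treg), which depend on Foxp3, also hold members with a T-bet history.

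The libraries held between 19580616 and 24174592 reads over gene symbols, and reads were found for 15080 to 15326 symbols in each. The common coefficient of variation between libraries of a group was 0.0867. The first principal component of log counts carried 77.2% of the variance and separated ZsGreen+ from ZsGreen- libraries. The second carried 13.1%. Log2 fold changes below are ZsGreen+ over ZsGreen- cells with their standard error, so a positive value means a higher level in ZsGreen+ cells. They come from edgeR's quasi-likelihood test of the read counts, and a gene is said to rise or fall only where its Benjamini-Hochberg adjusted p was below 0.05. Levels are RPKM, the reads per kilobase of transcript scaled to the reads of the library, with SD over 2 libraries.

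The genes behind the sort gates were examined first. Tbx21 measured 193 and 214 RPKM in the ZsGreen+ libraries, against 46.4 and 45.3 RPKM in the ZsGreen- libraries. Every ZsGreen+ library was above both ZsGreen- libraries, which still held Tbx21 reads, and the log2 fold change was 2.11 ± 0.08 (adjusted p = 2.08e-07). This direction is what the ZsGreen gate selects and is not a finding. The gate gene Cd44 measured 61.2 and 58.4 RPKM in the ZsGreen+ libraries, against 51.1 and 52.8 RPKM in the ZsGreen- libraries and was not called. Cd4 measured 199 and 189 RPKM in the ZsGreen+ libraries, against 362 and 381 RPKM in the ZsGreen- libraries, lower in both ZsGreen+ libraries (log2 -0.98 ± 0.08). The CD3 chains did not pass the test, with log2 fold changes of -0.01 ± 0.08 for Cd3d, -0.07 ± 0.09 for Cd3e and -0.13 ± 0.08 for Cd3g. Il2ra, which encodes the CD25 used for the negative gate, measured 10.5 and 13.6 RPKM in the ZsGreen+ libraries, against 3.16 and 2.64 RPKM in the ZsGreen- libraries and rose by log2 2.01 ± 0.14. Cd8a measured 4.09 and 4.54 RPKM in the ZsGreen+ libraries, against 2.36 and 3.53 RPKM in the ZsGreen- libraries, and Foxp3, whose product defines Treg, 5.50 and 5.13 RPKM in the ZsGreen+ libraries, against 32.5 and 36.1 RPKM in the ZsGreen- libraries. The defining markers of CD4 T cells were thus present in all 4 libraries, with Foxp3 transcripts still present after the CD25- sort.

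Of 12918 genes tested, 3074 (23.8%) differed, 1470 (11.4%) higher and 1604 (12.4%) lower in ZsGreen+ cells. At least 2-fold differences were called for 1061 genes (8.21%), of which 535 (4.14%) were higher and 526 (4.07%) lower. The 2 groups did not overlap for 8105 tested genes (62.7%), so the absence of overlap alone says little about a gene. In a fit that shared the spread of the 8 lymph node RNA libraries, 63 genes were called, 25 higher and 38 lower, and 217 of the 262 calls named in the text were lost, all with the same sign. Against a minimum fold of 1.5 the count was 962. The median log2 fold change over all tested genes was 0.004, and list medians below are read against it. List counts below are read against the 11.4% of tested genes called higher and the 12.4% called lower. In bulk samples such as these, fewer cells of a type and less RNA per cell cannot be told apart.

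**Figure D1:**
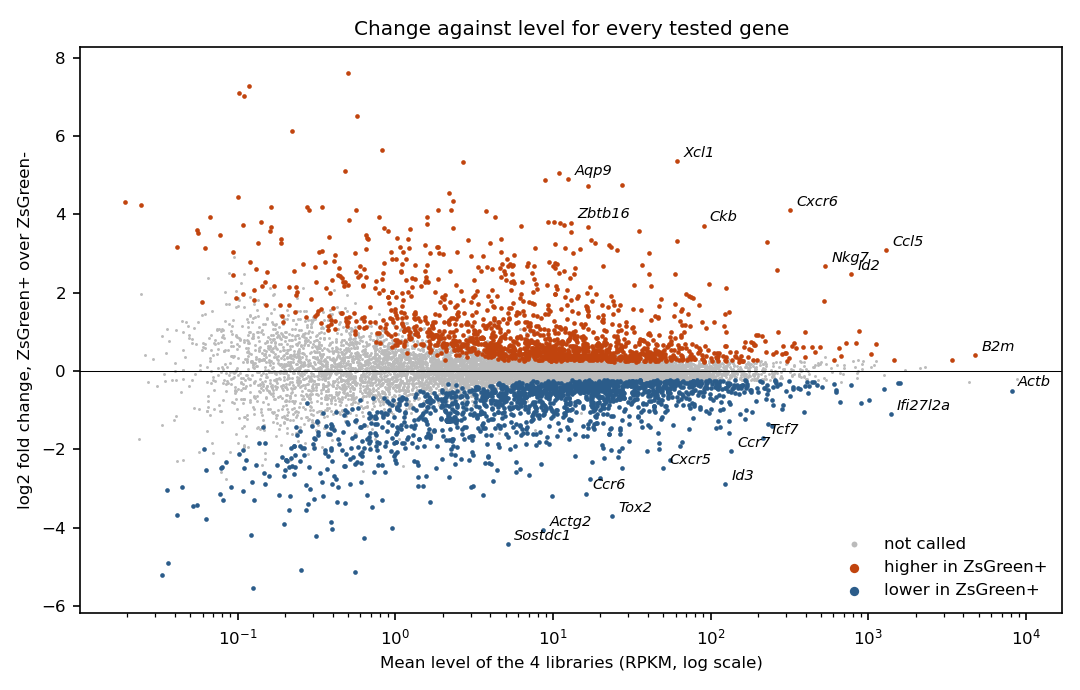
Log2 fold change (ZsGreen+ over ZsGreen-, vertical axis) against the mean RPKM of the 4 libraries (horizontal log axis), 1 point per tested gene; genes called higher in ZsGreen+ cells are orange, genes called lower are blue and genes not called are grey. The 3074 called genes lie on both sides of 0 and at all levels, with Xcl1, Cxcr6 and Ccl5 at the upper edge and Tox2 and Id3 at the lower edge.

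Counting only genes that reached 5 RPKM in 1 of the groups, Xcl1 rose most; it encodes the chemokine lymphotactin. It measured 103 and 137 RPKM in the ZsGreen+ libraries, against 3.14 and 2.55 RPKM in the ZsGreen- libraries, a log2 fold change of 5.36 ± 0.18 (adjusted p = 1.69e-07). Both ZsGreen+ libraries stood far above both ZsGreen- libraries. Also among the largest rises were Slc27a6, of a fatty acid transport protein family (log2 5.34 ± 0.30), Atp8a2, a phospholipid flippase (5.06 ± 0.19), and Aqp9, a water and glycerol channel (4.89 ± 0.22). Ckb, the brain-type creatine kinase, rose by log2 3.71 ± 0.15 and averaged 168 ± 35.8 RPKM in ZsGreen+ cells and 12.4 ± 1.57 RPKM in ZsGreen- cells. Nedd4, a ubiquitin ligase, rose by log2 3.80 ± 0.11, Gpc1, a cell-surface heparan sulphate proteoglycan, by 3.79 ± 0.17, and Prrt1 and Ccdc102a by 4.88 ± 0.33 and 3.80 ± 0.14.

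The largest fall in that level range was that of Sostdc1, a secreted antagonist of BMP and Wnt signals. It measured 0.738 and 0.146 RPKM in the ZsGreen+ libraries, against 11.4 and 8.34 RPKM in the ZsGreen- libraries, a log2 fold change of -4.42 ± 0.40 (adjusted p = 3.97e-05). Neither ZsGreen+ library came near the ZsGreen- libraries. Actg2, smooth muscle gamma actin, measured 1.11 and 0.887 RPKM in the ZsGreen+ libraries, against 15.5 and 17.2 RPKM in the ZsGreen- libraries (log2 -4.05 ± 0.18). Actn1, an actin cross-linker, had a log2 fold change of -2.65 ± 0.10, the smooth muscle gene Smtn -2.51 ± 0.17 and the actin-associated gene Synpo -2.52 ± 0.12. The orphan receptor gene Gpr83 and Lrrc32, which encodes a protein that holds latent TGF-beta on Treg, had log2 fold changes of -3.16 ± 0.18 and -2.95 ± 0.19. Capn3, a calpain protease, had log2 -2.95 ± 0.18, Spsb1, a substrate adaptor of ubiquitin ligases, -2.80 ± 0.18, and the neuritin gene Nrn1 -2.75 ± 0.19.

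T-bet is a T-box factor, and the promoters of the leading genes were searched for the T-box core letters GGTGTGA on both strands of RefSeq windows that run from 250 bases before to 50 bases after a transcript start (build GRCm38.p6). Windows were found for 20 of the 30 leading genes (15 rises and 15 falls). Xcl1 and Gpr83 alone among these 20 held the letters. Both windows are shown because they carry the letters, printed 5′ to 3′ on the gene's strand with the match in capitals. The Xcl1 window is chr1:164935473-164935772 on the minus strand with the match starting at -188 from the start site, and the Gpr83 window is chr9:14859960-14860259 on the plus strand with the match starting at -134.
Xcl1: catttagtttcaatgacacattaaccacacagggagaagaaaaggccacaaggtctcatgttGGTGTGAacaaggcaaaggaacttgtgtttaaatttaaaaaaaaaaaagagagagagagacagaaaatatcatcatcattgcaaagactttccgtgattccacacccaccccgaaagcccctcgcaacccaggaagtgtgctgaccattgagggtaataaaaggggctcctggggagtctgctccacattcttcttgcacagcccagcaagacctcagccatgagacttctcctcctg
Gpr83: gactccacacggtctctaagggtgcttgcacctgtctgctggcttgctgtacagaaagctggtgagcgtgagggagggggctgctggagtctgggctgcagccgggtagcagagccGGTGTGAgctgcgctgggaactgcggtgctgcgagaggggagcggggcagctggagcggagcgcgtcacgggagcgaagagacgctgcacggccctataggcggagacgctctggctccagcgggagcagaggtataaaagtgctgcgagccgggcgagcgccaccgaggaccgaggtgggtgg
The letters were in 4.01% of windows of genes at least 2-fold higher in ZsGreen+ cells, in 3.70% of windows of genes at least 2-fold lower and in 3.42% of windows of all tested genes. For the shorter letters GTGTGA, which GGTGTGA contains, the shares were 12.4%, 11.3% and 11.3%. Both shares were near the share of all tested genes. No window of Tbx21, Ifng, Prf1 or Cxcr6 in the table held GGTGTGA, which says only that these letters are not in those windows.

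Among regulators of Th1 cells, 11 of 16 tested genes rose and 0 fell (median log2 fold change 0.54). With the replicate number as a block, 12 rose and 1 fell. Any part of the gate gene Tbx21 in these counts is fixed by the sort and is not a finding. Id2, an inhibitor of E-protein transcription factors, measured 1219 and 1418 RPKM in the ZsGreen+ libraries, against 262 and 199 RPKM in the ZsGreen- libraries, a log2 fold change of 2.48 ± 0.13. It was the most abundant regulator of the list in both ZsGreen+ libraries. Bhlhe40, a repressor that supports cytokine production, rose by log2 1.69 ± 0.12. The related T-box factor gene Eomes stayed low and averaged 2.34 ± 0.0210 RPKM in ZsGreen+ cells and 1.22 ± 0.172 RPKM in ZsGreen- cells, with a log2 fold change of 0.90 ± 0.17. Runx3, the partner of T-bet at the Ifng gene, rose by log2 0.77 ± 0.07, Prdm1, the gene of Blimp-1, by 0.68 ± 0.11, and Irf1 and Irf8, interferon-responsive factors, by 0.48 ± 0.07 and 0.53 ± 0.07. Runx1 was not called (log2 0.05 ± 0.08), nor were Zeb2 (0.84 ± 0.27) and Hlx (0.54 ± 0.30). Stat4, the transducer of interleukin 12, was called at log2 0.26 ± 0.07, but its adjusted p was 0.0859 without ZsGreen+ replicate 1, 0.166 without ZsGreen+ replicate 2 and 0.0726 without ZsGreen- replicate 1.

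Tfh regulators moved the other way, with 14 of 16 lower, 0 higher and a median log2 fold change of -1.04. The genes given here act in both directions, since Klf2 restrains Tfh formation, so the count does not measure a Tfh programme. Levels of some Tfh genes in lymph node cells are given below. The HMG-box factor gene Tox2 measured 3.65 and 3.33 RPKM in the ZsGreen+ libraries, against 41.1 and 47.2 RPKM in the ZsGreen- libraries (log2 -3.69 ± 0.12), and its relative Tox had a log2 fold change of -1.42 ± 0.10. Id3, an inhibitor of E proteins like Id2, measured 30.7 and 29.5 RPKM in the ZsGreen+ libraries, against 215 and 218 RPKM in the ZsGreen- libraries (log2 -2.89 ± 0.08). The 2 inhibitor genes thus moved in opposite directions, with no overlap between groups for either. Tcf7, the gene of TCF-1, measured 107 and 99.97 RPKM in the ZsGreen+ libraries, against 315 and 341 RPKM in the ZsGreen- libraries (log2 -1.70 ± 0.09), and its relative Lef1 had -0.55 ± 0.08. Bcl6 measured 5.30 and 4.89 RPKM in the ZsGreen+ libraries, against 11.6 and 10.05 RPKM in the ZsGreen- libraries (log2 -1.12 ± 0.11). Ascl2, a factor that induces Cxcr5, was low and had log2 -3.34 ± 0.41, Pou2af1, a B-cell and Tfh coactivator, -1.20 ± 0.12, Batf -0.63 ± 0.07 and Klf2, which induces egress genes and restrains Tfh formation, -0.96 ± 0.16. Maf (log2 -0.22 ± 0.11) and Stat3 (-0.11 ± 0.07) were not called.

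**Figure D2:**
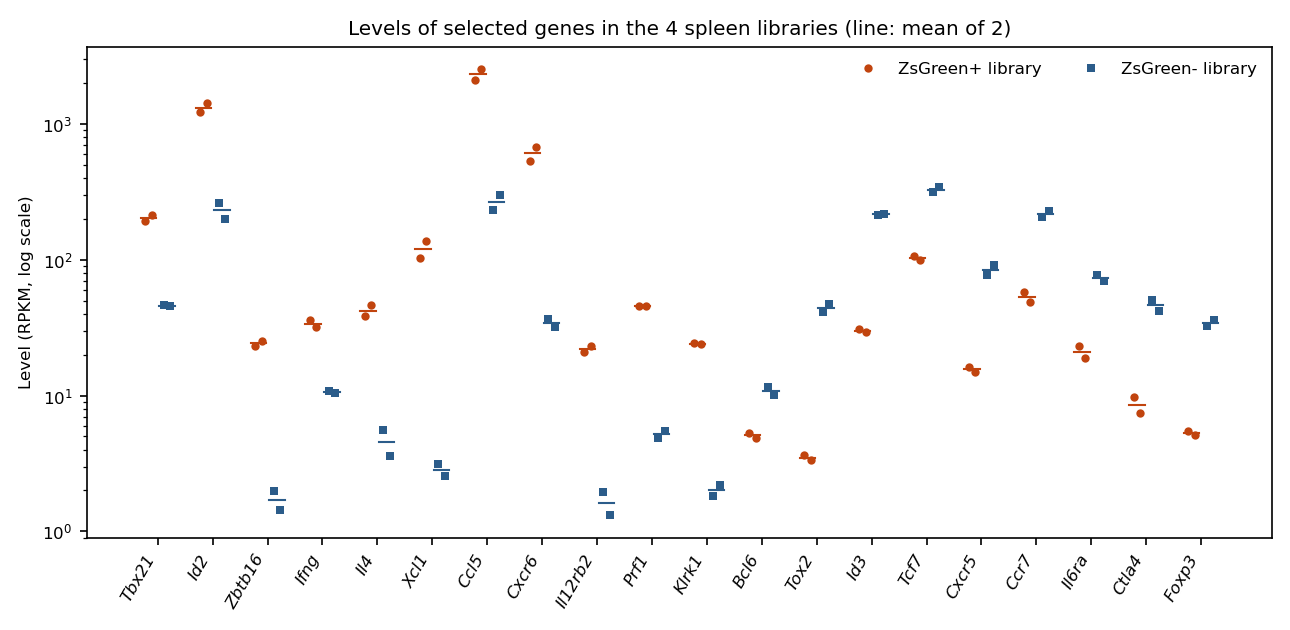
RPKM (vertical log axis) of 20 genes in each library, with ZsGreen+ libraries as orange circles, ZsGreen- libraries as blue squares and a line at the mean of 2. From Tbx21 to Klrk1 both ZsGreen+ libraries lie above both ZsGreen- libraries, and from Bcl6 to Foxp3 both lie below.

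Other lineage factors split. Zbtb16, the gene of PLZF, which directs the development of innate-like T cells, measured 23.2 and 25.2 RPKM in the ZsGreen+ libraries, against 1.97 and 1.45 RPKM in the ZsGreen- libraries and rose by log2 3.79 ± 0.13. Foxp3 (log2 -2.73 ± 0.10) and Ikzf4 (-2.34 ± 0.14), a partner of Foxp3, fell. Ahr, the aryl hydrocarbon receptor, had log2 -1.09 ± 0.12, Hif1a -0.73 ± 0.08 and Zbtb32, a repressor induced by activation, -1.97 ± 0.16. Gata3, the Th2 factor, averaged 139 ± 5.27 RPKM in ZsGreen+ cells and 119.6 ± 8.29 RPKM in ZsGreen- cells and was not called (log2 0.18 ± 0.08). In all, 4 of 15 members rose and 7 fell. Of 18 memory and quiescence factors, 6 rose and 7 fell; the chromatin organiser gene Satb1 rose by log2 1.46 ± 0.11 and Foxo3 by 1.07 ± 0.12, whereas Foxo1 had -0.85 ± 0.10, Myb -1.08 ± 0.13 and Ikzf2, the gene of Helios, -1.13 ± 0.08. Bach2 (log2 -0.04 ± 0.10) and Klf3 (-0.25 ± 0.24) were not called. Without ZsGreen+ replicate 1, 2 members rose, and without ZsGreen- replicate 1, 4 fell.

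Among the helper cytokines, 4 of 21 tested genes rose and 6 fell. Ifng, the Th1 cytokine, measured 35.8 and 32.0 RPKM in the ZsGreen+ libraries, against 10.8 and 10.4 RPKM in the ZsGreen- libraries, a log2 fold change of 1.64 ± 0.11 (adjusted p = 5.07e-06). Il4, a cytokine of Th2, Tfh and innate-like T cells, measured 38.2 and 46.3 RPKM in the ZsGreen+ libraries, against 5.55 and 3.57 RPKM in the ZsGreen- libraries, a rise of log2 3.18 ± 0.19. The groups did not overlap for either cytokine. Csf2, the gene of GM-CSF, was called higher at low counts, with 141 and 129 reads in the ZsGreen+ libraries and 9 and 2 reads in the ZsGreen- libraries, and Ltb, lymphotoxin beta, averaged 1385 ± 172 RPKM in ZsGreen+ cells and 841 ± 53.5 RPKM in ZsGreen- cells (log2 0.68 ± 0.09). Il2, the T cell growth factor, had log2 -1.48 ± 0.24, Il21, the cytokine of Tfh help, -1.91 ± 0.29, Tgfb3 -1.99 ± 0.12 and Ebi3, a subunit of interleukins 27 and 35, -1.001 ± 0.14. Tnf (log2 -0.30 ± 0.14), Lta (-0.15 ± 0.09), Il10 (-0.98 ± 0.37) and Tgfb1 (-0.48 ± 0.22) were not called. Il5, Il13, Il9, Il22, Il3 and Il6 had too few reads to be tested.

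Chemokine ligand genes rose in 6 of 10 tested cases and fell in 0. The count that rose was 4 with DESeq2 and 6 with limma on log2(RPKM + 1). Ccl5, the chemokine RANTES, measured 2105 and 2523 RPKM in the ZsGreen+ libraries, against 234 and 299 RPKM in the ZsGreen- libraries, a log2 fold change of 3.08 ± 0.14. In ZsGreen+ cells it was among the 10 transcripts of highest mean level. Ccl4, an inflammatory chemokine, rose by log2 1.88 ± 0.39, and Cxcl10, the ligand of Cxcr3, by 1.44 ± 0.20. Ccl1 was not called (log2 -0.52 ± 0.41).

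Of 34 tested cytokine receptor genes, 13 rose and 12 fell. Among those that rose were subunits of the receptors for interleukins 12 and 18. Il12rb2, the inducible interleukin 12 subunit, measured 20.8 and 23.2 RPKM in the ZsGreen+ libraries, against 1.94 and 1.31 RPKM in the ZsGreen- libraries (log2 3.72 ± 0.15), its partner Il12rb1 rose by 1.29 ± 0.08, and the interleukin 18 subunit gene Il18rap by 1.92 ± 0.09. Il18r1 was not called (log2 0.35 ± 0.12). Of the common gamma chain family, Il2rb, shared by the receptors of interleukins 2 and 15, measured 751 and 878 RPKM in the ZsGreen+ libraries, against 238 and 225 RPKM in the ZsGreen- libraries (log2 1.78 ± 0.09), the common chain Il2rg rose by 0.39 ± 0.08 and Il7r by 1.25 ± 0.07. Il17rb, a receptor of interleukin 25, rose by log2 2.77 ± 0.12, and Il27ra by 0.38 ± 0.08.

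The cytokine receptor genes that fell included both chains of the interleukin 6 receptor. Il6ra measured 23.03 and 18.9 RPKM in the ZsGreen+ libraries, against 77.3 and 69.7 RPKM in the ZsGreen- libraries (log2 -1.84 ± 0.11), and the shared signalling chain Il6st had -1.67 ± 0.09. No ZsGreen+ library reached a ZsGreen- library for Il6ra. Il1rl1, the receptor of interleukin 33, had log2 -2.39 ± 0.18, the decoy receptor Il1r2 -1.14 ± 0.23 and Il9r -2.38 ± 0.14. Il23r was low in all libraries, with 5 and 2 reads in the ZsGreen+ libraries and 57 and 58 reads in the ZsGreen- libraries, and was called lower. The interferon gamma receptor chains parted, since Ifngr1 rose by log2 0.65 ± 0.08 and Ifngr2 was called at -0.49 ± 0.14, with an adjusted p of 0.175 without ZsGreen+ replicate 2 and 0.0714 without ZsGreen- replicate 2. Among TGF-beta receptors the coreceptor gene Tgfbr3 had log2 -1.46 ± 0.10, and Tgfbr2 was not called (-0.26 ± 0.10). Neither interferon type I receptor chain was called, with log2 -0.20 ± 0.07 for Ifnar1 and 0.03 ± 0.09 for Ifnar2.

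**Figure D3:**
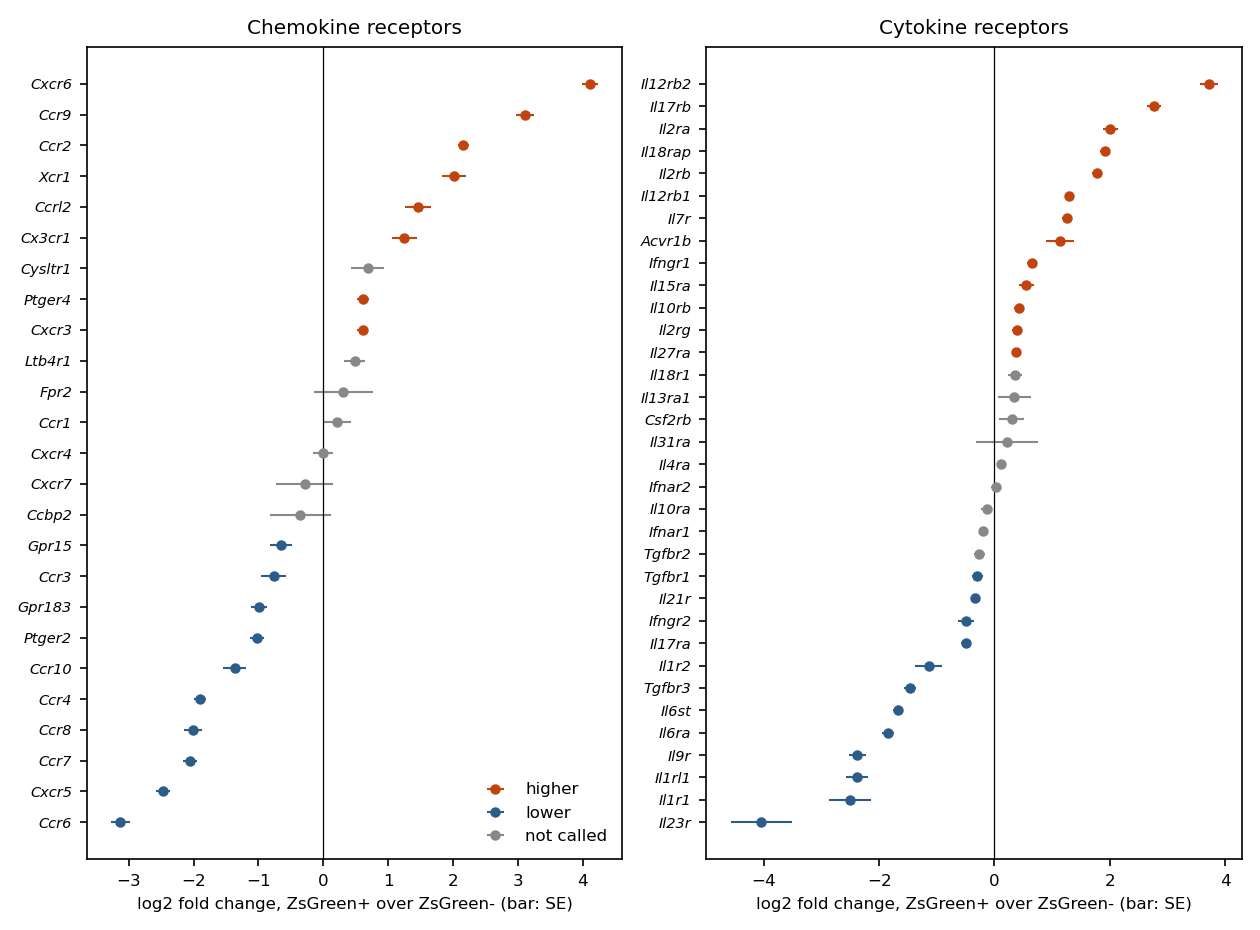
Log2 fold change (ZsGreen+ over ZsGreen-) with its standard error for 25 of the 26 tested chemokine and lipid chemoattractant receptors (left) and 34 tested cytokine receptors (right), ordered by value; orange marks genes called higher in ZsGreen+ cells, blue lower and grey not called. Cxcr6 and Il12rb2 are at the top of their panels, and Ccr6 and Il23r at the bottom.

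Chemokine and chemoattractant receptors split in number as well, with 9 of 26 higher and 10 lower. Cxcr6, a receptor of lymphocytes that settle in liver and other tissues, measured 531 and 681 RPKM in the ZsGreen+ libraries, against 36.3 and 31.9 RPKM in the ZsGreen- libraries (log2 4.11 ± 0.13, adjusted p = 1.43e-07). Receptors of inflamed tissue also rose, among them Ccr2 by log2 2.16 ± 0.08 and Cx3cr1 by 1.25 ± 0.20. Ccr9, a gut-homing receptor, rose by log2 3.11 ± 0.14 and averaged 26.8 ± 5.41 RPKM in ZsGreen+ cells and 3.02 ± 0.318 RPKM in ZsGreen- cells. Cxcr3, a direct T-bet target in Th1 cells, was abundant in both groups at 532 ± 40.1 RPKM in ZsGreen+ cells and 340.0 ± 7.04 RPKM in ZsGreen- cells and rose by log2 0.61 ± 0.08. Among the falls were receptors that guide cells through lymphoid organs. Cxcr5, for follicles, measured 16.3 and 15.01 RPKM in the ZsGreen+ libraries, against 77.3 and 91.4 RPKM in the ZsGreen- libraries (log2 -2.47 ± 0.11), and Ccr7, for T cell zones, 58.3 and 48.8 RPKM in the ZsGreen+ libraries, against 205 and 229 RPKM in the ZsGreen- libraries (-2.05 ± 0.11). The ZsGreen+ libraries stood below both ZsGreen- libraries for each. Gpr183, for the follicle border, had log2 -0.99 ± 0.12. The receptors Ccr6 (log2 -3.13 ± 0.15), of Th17 cells, and Ccr4 (-1.90 ± 0.10), Ccr8 (-2.02 ± 0.14) and Ccr10 (-1.37 ± 0.18), of skin-homing and regulatory T cells, were lower too. Cxcr4, for bone marrow and the dark zone, had log2 0.00 ± 0.15 and was not called.

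Genes of egress, adhesion and selectin ligands gave 12 rises and 15 falls among 38 tested. S1pr1, the sphingosine phosphate receptor that lets lymphocytes leave lymphoid organs, measured 70.9 and 61.0 RPKM in the ZsGreen+ libraries, against 158 and 153 RPKM in the ZsGreen- libraries (log2 -1.28 ± 0.09), whereas S1pr5, used by effector lymphocytes, rose by 2.27 ± 0.13 and S1pr4 had -0.59 ± 0.07. The tissue activation marker Cd69 was not called (log2 0.09 ± 0.09). Among integrins, Itgal and Itgb2, the chains of LFA-1, rose by log2 0.61 ± 0.08 and 0.599 ± 0.08, Itgb3 by 1.38 ± 0.07 and the collagen receptor chain Itga1, at low level, by 2.55 ± 0.22. Itga4 and Itgb7, the chains of a gut-homing integrin, had log2 -0.67 ± 0.11 and -0.57 ± 0.07, and Itgae, which encodes CD103, -2.16 ± 0.14. The integrin ligand gene Icam1 rose by log2 1.46 ± 0.09, and the sialyltransferase genes St3gal6 and St3gal4, which build selectin ligands, by 1.96 ± 0.10 and 1.08 ± 0.09; the fucosyltransferase gene Fut7, of the same route, had -1.11 ± 0.18.

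Cytotoxic granule genes rose in 13 of 23 cases, all by at least 2-fold, and fell in 1, or in 2 without ZsGreen- replicate 1. Prf1, which encodes perforin, measured 45.5 and 46.0 RPKM in the ZsGreen+ libraries, against 4.91 and 5.47 RPKM in the ZsGreen- libraries (log2 3.10 ± 0.10). Gzma, a granzyme, measured 178 and 144 RPKM in the ZsGreen+ libraries, against 29.3 and 38.2 RPKM in the ZsGreen- libraries (log2 2.22 ± 0.15), and Gzmb rose by 1.02 ± 0.14. The ranges did not overlap for Prf1 or Gzma. Nkg7, a granule membrane protein gene, averaged 922 ± 77.4 RPKM in ZsGreen+ cells and 139.9 ± 10.5 RPKM in ZsGreen- cells, Ctsw, a cathepsin of killer cells, rose by log2 3.29 ± 0.10, and Fasl, the death ligand, by 2.70 ± 0.10. The protease inhibitor genes Serpina3f (log2 3.57 ± 0.14), Serpina3g (1.85 ± 0.09), Serpinb6b (1.56 ± 0.10) and Serpinb9 (1.43 ± 0.09) rose alongside. Of the release machinery, Unc13d (log2 -0.13 ± 0.09), Rab27a (-0.09 ± 0.07) and Lamp1 (-0.14 ± 0.08) were not called and Stx11 had -0.72 ± 0.08. Gzmk (log2 0.25 ± 0.18) and Gzmc (0.72 ± 0.34) were not called.

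Receptors and adaptors of killer cells rose in 26 of 29 tested cases, with a median log2 fold change of 2.65. The count that rose was 22 with DESeq2 and 21 with limma on log2(RPKM + 1). Klrk1, which encodes NKG2D, measured 24.4 and 23.9 RPKM in the ZsGreen+ libraries, against 1.82 and 2.19 RPKM in the ZsGreen- libraries (log2 3.55 ± 0.11), and Cd160 97.8 and 123 RPKM in the ZsGreen+ libraries, against 11.4 and 10.4 RPKM in the ZsGreen- libraries (3.31 ± 0.11). Klrd1, which encodes CD94, rose by log2 3.22 ± 0.18, its partner Klrc1 by 3.93 ± 0.31, Klrb1c, which encodes NK1.1, by 3.71 ± 0.14, and the receptor gene Ncr1 by 2.74 ± 0.14. The signalling adaptor genes Tyrobp (log2 1.099 ± 0.13), Fcer1g (1.15 ± 0.13) and Hcst (0.63 ± 0.09) rose too. Klrg1 alone was lower (log2 -0.48 ± 0.11), and its adjusted p was 0.0775 without ZsGreen+ replicate 2. Klra, Klrb1, Klrc, Serpina3 and Gzm genes have close copies whose reads the authors' counting may split or share, so values of single members are uncertain.

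Genes typical of innate-like T cells (NKT and related lineages) rose in 16 of 26 cases and fell in 6. Many of its members, among them Xcl1, Cxcr6, Zbtb16, Cd160, Il4 and Il2rb, also stand in the lists above, so its count is no separate evidence. Ly6c2 measured 507 and 402 RPKM in the ZsGreen+ libraries, against 72.8 and 75.2 RPKM in the ZsGreen- libraries (log2 2.58 ± 0.12). Plac8 rose by log2 1.68 ± 0.09, Arsb, a lysosomal sulphatase, by 2.19 ± 0.08 and Ly6c1 by 3.34 ± 0.19. The members that fell included Il23r, Slamf6 (log2 -1.42 ± 0.10), Sh2d1a, the SLAM adaptor (-0.62 ± 0.07), and Slamf1 and Icos. Slamf1 was called at log2 -0.29 ± 0.08 and Icos at -0.27 ± 0.08; without single libraries the adjusted p of Slamf1 was 0.124 without ZsGreen+ replicate 1, 0.0752 without ZsGreen+ replicate 2 and 0.0541 without ZsGreen- replicate 1, and that of Icos was 0.273 without ZsGreen+ replicate 2 and 0.115 without ZsGreen- replicate 1. Summed over the 26 genes of the list, the level was 2619 to 2845 RPKM in the ZsGreen+ libraries and 857 to 882 RPKM in the ZsGreen- libraries.

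Markers of natural killer (NK) cells moved in the same direction as these groups. Of 15 NK markers, 14 were called higher and 0 lower, and the count higher was 11 both with DESeq2 and with limma on log2(RPKM + 1). Most of these markers, among them Ncr1, Prf1, Gzma and the Klra genes, are also members of the lists just described. The summed level of the 15 markers was 405 to 487 RPKM in the ZsGreen+ libraries and 113 to 128 RPKM in the ZsGreen- libraries. The defining marker Ncr1 measured 20.1 and 17.1 RPKM in the ZsGreen+ libraries, against 2.84 and 2.60 RPKM in the ZsGreen- libraries, Eomes rose by log2 0.90 ± 0.17 and Itga2, which encodes the NK marker CD49b, was not called (0.23 ± 0.18). No NK marker was at 0 in all libraries. The part of NK or innate-like T cells within the sorted gate in the rises of granule, killer receptor and chemokine genes was not tested.

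**Figure D4:**
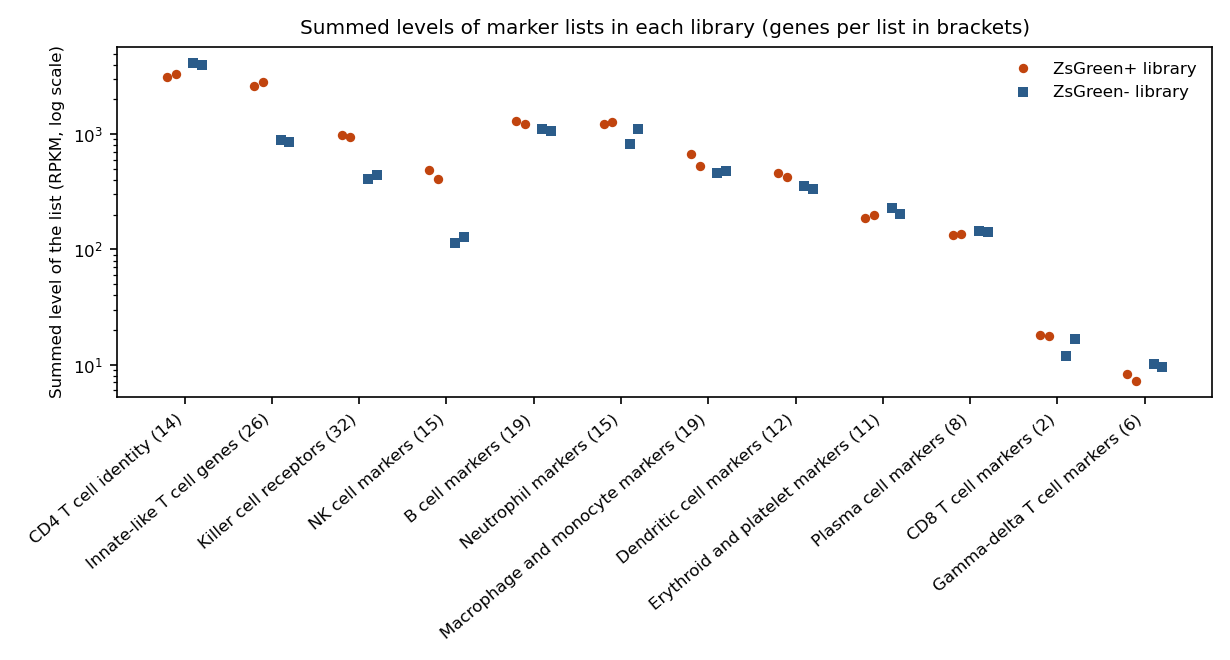
Summed RPKM (vertical log axis) of 12 marker lists in each library, with ZsGreen+ libraries as orange circles and ZsGreen- libraries as blue squares; the number of genes per list is in brackets. The innate-like, killer receptor and NK sums of both ZsGreen+ libraries lie above both ZsGreen- libraries, and the CD4 T cell identity sums lie below.

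Markers of other blood cells were present in all 4 libraries. Their counts stand beside 11.4% of all tested genes called higher and 12.4% called lower. The B cell sum was 1215 to 1287 RPKM in the ZsGreen+ libraries and 1070.1 to 1111 RPKM in the ZsGreen- libraries, with 1 of 19 markers called higher and 1 lower; without ZsGreen+ replicate 2 the counts were 3 and 0, and without ZsGreen- replicate 2 the count higher was 3. The neutrophil sum was 1216 to 1281 RPKM in the ZsGreen+ libraries and 815 to 1115 RPKM in the ZsGreen- libraries, and 2 of 15 markers were called higher, among them the protease gene Mmp9 (log2 2.003 ± 0.15). That count was 10 without ZsGreen- replicate 2 and 5 without each of the other libraries. The macrophage sum was 533 to 674 RPKM in the ZsGreen+ libraries and 456 to 475 RPKM in the ZsGreen- libraries, with 3 of 19 called higher and 1 without ZsGreen+ replicate 1, 11 without ZsGreen+ replicate 2 and 5 without ZsGreen- replicate 1. The dendritic cell sum was 424 to 456 RPKM in the ZsGreen+ libraries and 332 to 355 RPKM in the ZsGreen- libraries. The groups did not overlap for this sum or for the B cell, neutrophil and macrophage sums. Over all tested genes, the groups did not overlap for 62.7%. Of 12 dendritic cell markers 3 were called higher, namely Ccr9, Xcr1 (log2 2.02 ± 0.19) and Itgax (1.49 ± 0.17), which also stand in the lists of homing and adhesion genes, and 0 were called lower. The count higher was 6 without ZsGreen+ replicate 2 and 5 without ZsGreen- replicate 1. The defining markers Zbtb46 (log2 0.55 ± 0.34) and Flt3 (0.59 ± 0.37) were not called. Of 8 plasma cell markers 1 was called higher and 3 lower. Of 6 gamma-delta T cell markers 2 were higher, or 1 without ZsGreen+ replicate 1, and 2 lower. Of 11 erythroid and platelet markers 1 was higher, or 0 without any library but ZsGreen- replicate 1, and 0 were lower, or 2 without ZsGreen- replicate 2. Of 6 tested mast cell and basophil markers 1 was higher, or 4 without ZsGreen- replicate 2. Neither of the CD8 T cell markers was called, but both were higher without ZsGreen- replicate 2. Of stromal and endothelial markers, 2 of 12 had enough reads to be tested. Genes of the CD4 T cell itself were lower as a list, since 8 of 14 fell and 0 rose, and the summed level was 3153 to 3302 RPKM in the ZsGreen+ libraries and 4002 to 4148 RPKM in the ZsGreen- libraries. The part of these other cells in the results was not tested.

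Of 38 T cell receptor signalling genes, 14 were lower and 5 higher in ZsGreen+ cells. Cd247, the zeta chain, measured 178 and 167 RPKM in the ZsGreen+ libraries, against 279.8 and 276 RPKM in the ZsGreen- libraries (log2 -0.73 ± 0.08), the adaptor gene Lat had -0.53 ± 0.08, Trat1 -1.19 ± 0.10 and Themis -0.54 ± 0.08. Cd5, which damps receptor signals and tracks their strength, measured 125 and 119 RPKM in the ZsGreen+ libraries, against 241 and 250.2 RPKM in the ZsGreen- libraries (log2 -1.04 ± 0.08). The diacylglycerol kinase genes Dgka (log2 -1.09 ± 0.09) and Dgkz (-0.51 ± 0.08) and the phosphatase gene Ubash3a (-0.68 ± 0.09), which are negative regulators, fell as well. The Tec family kinase genes Txk (log2 1.67 ± 0.09) and Tec (0.73 ± 0.13) rose. Zap70 (log2 0.05 ± 0.08) and Lck (-0.22 ± 0.08) were not called. Of 28 immediate early genes 5 rose and 7 fell. Egr1 (log2 -0.99 ± 0.08), Egr2 (-1.27 ± 0.09) and Nr4a1 (-0.68 ± 0.07), induced by receptor signals, were lower, Myc (0.66 ± 0.08) and Jun (0.54 ± 0.09) were higher, and Junb (0.13 ± 0.09) was not called.

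Feedback regulators rose in 10 of 32 cases and fell in 8. Genes of the SOCS family, inhibitors of cytokine signals that STAT5 and interferons induce, rose in Socs2 (log2 2.69 ± 0.14), Cish (1.41 ± 0.11), Socs1 (0.99 ± 0.10) and Socs5 (0.89 ± 0.11), whereas Socs3, induced by interleukin 6, had -0.71 ± 0.08. Spry2, an inhibitor of growth factor signals, measured 8.76 and 8.09 RPKM in the ZsGreen+ libraries, against 0.995 and 1.002 RPKM in the ZsGreen- libraries (log2 3.04 ± 0.16), and its relative Spry1 had -1.69 ± 0.14. The 2 relatives moved in opposite directions. Among RGS genes, which damp chemokine receptor signals, Rgs1 (log2 1.41 ± 0.08), Rgs2 (1.05 ± 0.14) and Rgs3 (0.90 ± 0.10) rose, and Rgs10 (-1.92 ± 0.11) and Rgs16 (-1.94 ± 0.24) fell. Among dual-specificity phosphatases, which act on MAP kinases, Dusp2 rose by log2 0.75 ± 0.11 and Dusp4 had -2.27 ± 0.23.

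Of 21 Treg genes, 15 were lower and 3 higher in ZsGreen+ cells, with a median log2 fold change of -1.35. Foxp3 had a log2 fold change of -2.73 ± 0.10, Ctla4, which encodes the inhibitory receptor of Treg and activated T cells, measured 9.71 and 7.42 RPKM in the ZsGreen+ libraries, against 50.9 and 41.8 RPKM in the ZsGreen- libraries (-2.46 ± 0.14), and Folr4, which encodes folate receptor 4, had -1.40 ± 0.09. Both ZsGreen+ libraries lay below both ZsGreen- libraries for Ctla4. Penk, the proenkephalin gene (log2 -2.16 ± 0.13), and Capg, an actin capping protein (-1.57 ± 0.12), were lower too. The members that rose were Il2ra, the ectonucleotidase gene Entpd1 (log2 0.95 ± 0.09) and Tnfrsf18, which encodes GITR and was called at 0.29 ± 0.09, with an adjusted p of 0.341 without ZsGreen+ replicate 2 and 0.0557 without ZsGreen- replicate 2. The share of Foxp3-expressing cells in each sort was not measured, and its part in these falls was not tested.

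Inhibitory receptors fell in 9 of 18 cases and rose in 4. Pdcd1, which encodes PD1, measured 31.9 and 28.0 RPKM in the ZsGreen+ libraries, against 109 and 94.6 RPKM in the ZsGreen- libraries (log2 -1.80 ± 0.10), and Tigit 23.3 and 15.4 RPKM in the ZsGreen+ libraries, against 88.2 and 94.2 RPKM in the ZsGreen- libraries (-2.26 ± 0.16). Both were lower in each ZsGreen+ library. Btla had log2 -0.91 ± 0.07 and Lag3 -0.74 ± 0.15; Havcr2, which encodes Tim-3, was not called (0.34 ± 0.21). Among costimulatory and SLAM receptors 5 of 19 rose and 9 fell, with Slamf7 (log2 2.69 ± 0.09) and Cd226 (1.54 ± 0.08), both of cytotoxic lymphocytes, higher and Cd28 (-0.39 ± 0.08) and Cd200 (-2.21 ± 0.11) lower. Of 28 TNF family genes 8 rose and 11 fell. Tnfsf14, which encodes LIGHT, rose by log2 1.25 ± 0.08 and Tnfsf10, which encodes TRAIL, by 1.14 ± 0.11, whereas Tnfsf8 had -1.78 ± 0.12, Tnfsf11, which encodes RANKL, -1.49 ± 0.12 and Tnfrsf4, which encodes OX40, -1.98 ± 0.08. Cd40lg, the B cell help ligand, was not called (log2 0.19 ± 0.07).

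Genes of the response to interferon gamma rose in 18 of 28 cases and fell in 1, the receptor gene Ifngr2 described above (0 without either replicate 2), mostly by small factors (median log2 fold change 0.39). The guanylate-binding protein genes Gbp2 (log2 0.48 ± 0.08), Gbp4 (0.56 ± 0.08) and Gbp7 (0.65 ± 0.08) and the GTPase gene Igtp (0.54 ± 0.09) rose. B2m, the light chain of MHC class I, measured 5730.4 and 5209.9 RPKM in the ZsGreen+ libraries, against 4092 and 4005 RPKM in the ZsGreen- libraries (log2 0.40 ± 0.08). It was above both ZsGreen- libraries in each ZsGreen+ library and was the gene with the largest gain in RPKM but for Ccl5. Tap1 (log2 -0.01 ± 0.07), Psmb9 (-0.02 ± 0.07) and Nlrc5 (0.04 ± 0.07), of antigen processing, were not called. Of 15 class I genes 7 rose and 1 fell, and the gene that fell was Cd1d1 (log2 -0.62 ± 0.08), whose product presents lipids to NKT cells. Of 30 genes of the type I response 9 rose and 2 fell, a count that was 5 without ZsGreen+ replicate 1, 17 without ZsGreen+ replicate 2 and 14 without ZsGreen- replicate 1. Oasl1 (log2 1.29 ± 0.15) and Oas2 (0.66 ± 0.12) rose, and Ifi27l2a, abundant in both groups, measured 1038 and 751 RPKM in the ZsGreen+ libraries, against 1966 and 1789 RPKM in the ZsGreen- libraries (-1.103 ± 0.14). Gbp, H2-Q and Ifit genes have close copies, so values of single members are uncertain.

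All 8 GTPases of the Gimap cluster, some of which support lymphocyte survival, had positive log2 fold changes, and 7 were called. Apart from Gimap9, those called ranged from log2 0.52 ± 0.08 for Gimap8 to 0.71 ± 0.08 for Gimap7. Gimap9 was called at log2 0.26 ± 0.07, with an adjusted p of 0.122 without ZsGreen+ replicate 1, 0.0909 without ZsGreen+ replicate 2 and 0.0687 without ZsGreen- replicate 2. Of 10 Ly6 family genes 4 rose, among them Ly6e (log2 0.73 ± 0.09), while Ly6a, which encodes Sca-1, was not called (0.19 ± 0.10).

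Genes of S100 proteins, annexins and the cytoskeleton, many of which rise when T cells become effector or memory cells, fell in 20 of 30 cases and rose in 3 (median log2 fold change -0.70). S100a4 measured 291 and 227 RPKM in the ZsGreen+ libraries, against 495 and 551 RPKM in the ZsGreen- libraries (log2 -1.05 ± 0.12), and Vim, the gene of vimentin, 155 and 111 RPKM in the ZsGreen+ libraries, against 296 and 362 RPKM in the ZsGreen- libraries (-1.34 ± 0.16). Both were lower in each ZsGreen+ library. Lgals1, of galectin 1, had log2 -0.79 ± 0.12, Anxa2 -0.995 ± 0.11, Crip1 -0.83 ± 0.12, Flna, a filamin, -0.91 ± 0.08 and Lmna, a nuclear lamin, -1.08 ± 0.16. Actb, the transcript of highest mean level in ZsGreen- cells, measured 7176 and 6457 RPKM in the ZsGreen+ libraries, against 9570.5 and 9215 RPKM in the ZsGreen- libraries (log2 -0.50 ± 0.09). The annexin gene Anxa1 rose (log2 1.04 ± 0.09), and Lgals3 (-0.14 ± 0.14) and Ahnak (-0.21 ± 0.09) were not called.

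Of 36 cell cycle genes, 24 were lower and 2 higher in ZsGreen+ cells (median log2 fold change -0.52). The proliferation marker Mki67 measured 7.73 and 7.32 RPKM in the ZsGreen+ libraries, against 11.2 and 10.6 RPKM in the ZsGreen- libraries (log2 -0.57 ± 0.08), and the mitotic cyclin gene Ccnb2 29.5 and 32.1 RPKM in the ZsGreen+ libraries, against 61.2 and 51.1 RPKM in the ZsGreen- libraries (-0.90 ± 0.10). Both ZsGreen+ libraries lay below both ZsGreen- libraries. Birc5, Aurka and Top2a, of mitosis and chromosome handling, had log2 -0.69 ± 0.10, -0.598 ± 0.10 and -0.46 ± 0.09. The members called higher were Mcm2 and Mcm7 of the replication licensing complex, Mcm2 rising by log2 0.46 ± 0.08. Without ZsGreen+ replicate 1, ZsGreen+ replicate 2 or ZsGreen- replicate 1 the count of risers was 1. Mcm3 (log2 0.04 ± 0.08), Mcm5 (0.20 ± 0.07) and Mcm6 (-0.18 ± 0.08) were not called. Of 21 cyclin and inhibitor genes 5 rose and 8 fell, 5 without ZsGreen+ replicate 2. The G1 cyclin genes Ccnd3 (log2 0.99 ± 0.08) and Ccnd2 (0.68 ± 0.08) and their kinase gene Cdk4 (0.46 ± 0.07) rose, Ccne1 (-0.69 ± 0.11) fell, and the inhibitor gene Cdkn1b (-0.50 ± 0.10) was lower. Rbl2, a pocket protein gene of quiescence, rose by log2 0.95 ± 0.08.

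Of 29 apoptosis genes 6 rose and 7 fell. The survival genes Bcl2 and Bcl2l1, which encodes Bcl-xL, both rose. Bcl2 measured 27.9 and 31.3 RPKM in the ZsGreen+ libraries, against 12.9 and 11.2 RPKM in the ZsGreen- libraries (log2 1.26 ± 0.09), and Bcl2l1 72.7 and 78.9 RPKM in the ZsGreen+ libraries, against 39.7 and 34.1 RPKM in the ZsGreen- libraries (1.0003 ± 0.09). The groups did not overlap for either. The death-promoting genes Bik (log2 1.60 ± 0.20) and Bcl2l11, which encodes Bim (0.83 ± 0.08), rose as well. The inflammatory caspase genes Casp1 and Casp4 had log2 -1.03 ± 0.11 and -1.47 ± 0.14. Mcl1 (log2 -0.06 ± 0.12) and Bax (-0.09 ± 0.07) were not called.

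Of 24 cholesterol synthesis genes, 16 were lower and 1 higher in ZsGreen+ cells, or 0 higher without ZsGreen+ replicate 1 or ZsGreen- replicate 2 (median log2 fold change -0.55). Sqle, squalene epoxidase, measured 6.30 and 5.35 RPKM in the ZsGreen+ libraries, against 16.9 and 15.7 RPKM in the ZsGreen- libraries (log2 -1.52 ± 0.11). Cyp51, a sterol demethylase, had log2 -0.96 ± 0.10, and Srebf2, the transcription factor of the pathway, -0.69 ± 0.08. The sterol exporter gene Abca1 rose by log2 2.34 ± 0.16, at 3.13 ± 0.721 RPKM in ZsGreen+ cells and 0.5996 ± 0.00779 RPKM in ZsGreen- cells. Among 34 sterol efflux and fatty acid genes 8 rose and 4 fell, and the synthesis genes Fasn (log2 -0.11 ± 0.09) and Scd1 (0.01 ± 0.11) and the oxidation gene Cpt1a (-0.26 ± 0.10) were not called.

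Of 25 glycolysis genes 4 rose and 3 fell, a total near the background; the glucose transporter gene Slc2a3 rose by log2 1.19 ± 0.10 and Ldha had -0.38 ± 0.07. Of 80 oxidative phosphorylation genes 3 rose, or 1 without any library but ZsGreen- replicate 2, and 0 fell. Of 25 citric acid cycle genes 2 rose and 1 fell, with 0 rising without ZsGreen+ replicate 1 or ZsGreen+ replicate 2, 1 rising without ZsGreen- replicate 1 and 0 falling without either replicate 2. Of 81 cytosolic ribosomal protein genes 1 rose and 0 fell, or 1 without ZsGreen- replicate 1, but 33 rose without ZsGreen- replicate 2, 4 without ZsGreen+ replicate 2 and 0 without ZsGreen+ replicate 1, and many have processed copies in the genome that make single values uncertain. Of 40 histone genes 1 rose and 0 fell, or 1 fell without ZsGreen+ replicate 1. Among transporters, 33 of 219 solute carrier genes (15.1%) rose and 30 (13.7%) fell, a total near the background of 11.4% higher and 12.4% lower. The neutral amino acid transporter gene Slc1a5 had log2 -0.38 ± 0.07, and Slc3a2, the heavy chain of amino acid transporters, rose by 0.40 ± 0.08.

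**Figure D5:**
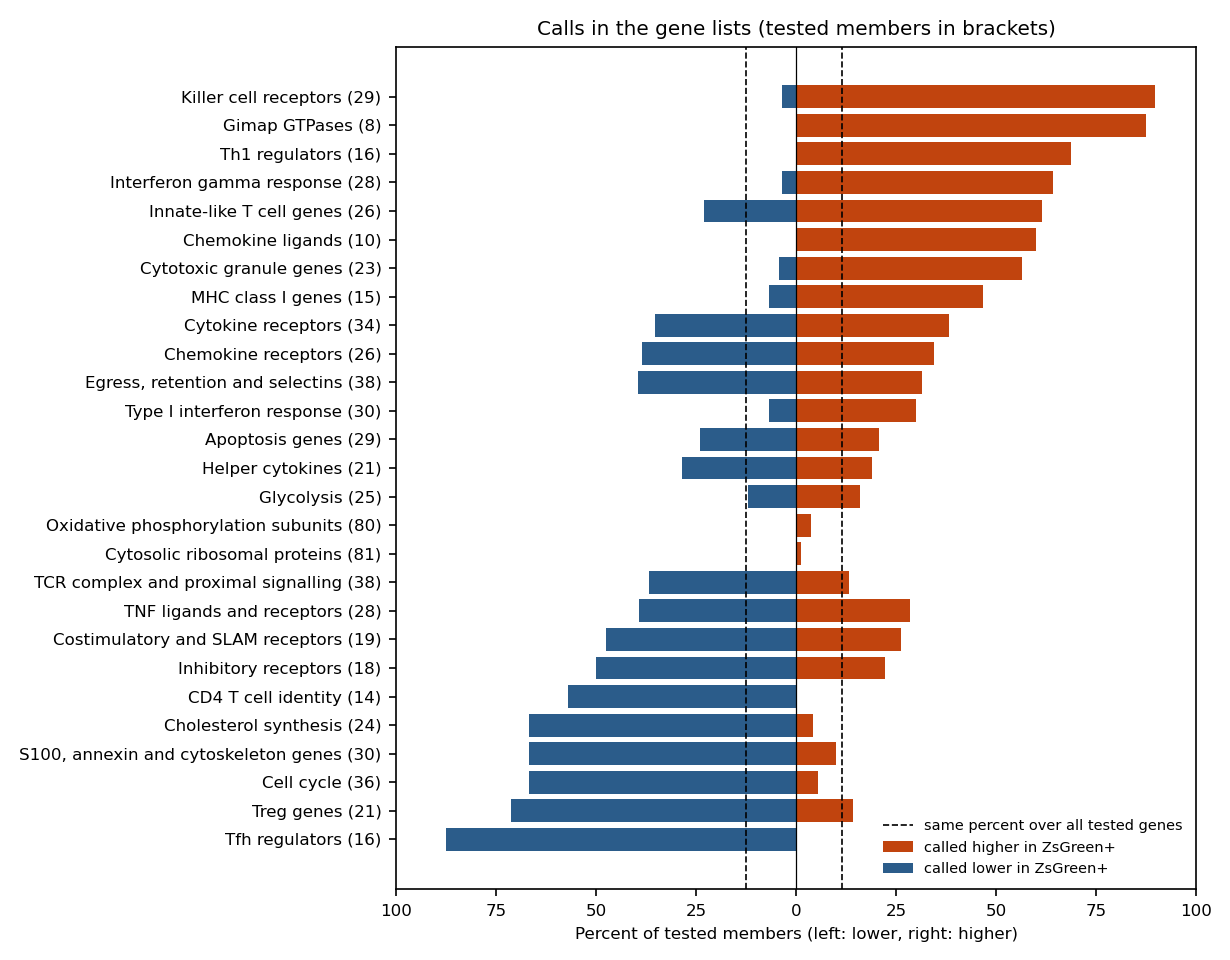
Percent of tested members called higher in ZsGreen+ cells (orange, to the right) or lower (blue, to the left) in 27 gene lists, with the number tested in brackets and dashed lines at the background of 11.4% higher and 12.4% lower. Killer receptor, Gimap and Th1 lists lie to the right, Tfh, Treg, cell cycle and cholesterol lists to the left, and the oxidative phosphorylation and ribosomal lists lie under the background on both sides.

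Genes of chromatin modification were close to the background, with 5 of 43 higher and 5 lower; without ZsGreen+ replicate 2, 3 were lower. Hdac11, a histone deacetylase gene, rose by log2 2.14 ± 0.41, the DNA methyltransferase gene Dnmt3b by 1.32 ± 0.16, and Ezh2, the polycomb methyltransferase gene, had -0.70 ± 0.10. Dnmt1 (log2 0.10 ± 0.07) and Tet2 (-0.29 ± 0.11) were not called. Of 23 nuclear receptor genes 6 rose and 4 fell. The estrogen receptor gene Esr1 averaged 4.32 ± 0.439 RPKM in ZsGreen+ cells and 0.336 ± 0.0149 RPKM in ZsGreen- cells (log2 3.64 ± 0.17), and the glucocorticoid receptor gene Nr3c1 rose by 0.90 ± 0.09.

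Channels, purine handling and guidance receptors were mixed. Of 22 channel genes 6 rose and 7 fell. Aqp9 measured 21.1 and 27.4 RPKM in the ZsGreen+ libraries, against 0.570 and 1.003 RPKM in the ZsGreen- libraries, the potassium channel gene Kcnj8 was low and rose by log2 3.92 ± 0.34, and Kcnn4, a calcium-activated potassium channel of activated T cells, measured 105 and 95.8 RPKM in the ZsGreen+ libraries, against 230.0 and 225 RPKM in the ZsGreen- libraries (-1.22 ± 0.08). Aqp3, another glycerol channel, had log2 -1.29 ± 0.15, opposite to Aqp9. Of 15 purinergic genes 6 rose and 3 fell. Nt5e, which encodes the adenosine-forming CD73, had log2 -1.35 ± 0.08, whereas Ada, which degrades adenosine, rose by 1.53 ± 0.17 and the adenosine receptor gene Adora2a by 0.65 ± 0.08. Of 19 guidance genes 4 rose and 6 fell, with the semaphorin gene Sema4a measuring 115 and 124 RPKM in the ZsGreen+ libraries, against 30.9 and 31.5 RPKM in the ZsGreen- libraries (log2 1.90 ± 0.08) and Nrp1, neuropilin 1, at -1.17 ± 0.11. In the TGF-beta, Wnt and Notch pathways 7 of 24 rose and 5 fell, among the risers Smad3 (log2 1.01 ± 0.10) and Furin (0.68 ± 0.14), and 3 fell without ZsGreen+ replicate 1 or without ZsGreen- replicate 1.

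The lymph node RNA libraries of the series came from AS15-specific cells of immunized T-bet-Cre mice with the same tdTomato allele and so differ in strain, tissue and gate. Each library was normalized on its own, and no test was made between tissues. Tbx21 averaged 45.9 ± 0.760 RPKM in spleen ZsGreen- cells, a level between 173 ± 13.5 RPKM in lymph node non-Tfh Tomato+ cells and 10.4 ± 0.0314 RPKM in non-Tfh Tomato- cells. Zbtb16 averaged 24.2 ± 1.35 RPKM in spleen ZsGreen+ cells and 1.71 ± 0.372 RPKM in spleen ZsGreen- cells, and its highest lymph node mean was 0.589 ± 0.688 RPKM, in non-Tfh Tomato+ cells. Xcl1 averaged 120.2 ± 24.3 RPKM in spleen ZsGreen+ cells, and its highest lymph node mean was 14.9 ± 9.55 RPKM, in Tfh Tomato+ cells. For Cxcr6 the spleen ZsGreen+ mean was 606 ± 106 RPKM and the highest lymph node mean 495 ± 57.2 RPKM, in non-Tfh Tomato+ cells, and the libraries of these groups overlapped. The cytokine genes Ifng and Il4 had higher means in some lymph node groups. Ifng averaged 33.9 ± 2.67 RPKM in spleen ZsGreen+ cells, below 268 ± 39.6 RPKM in non-Tfh Tomato+ and 89.3 ± 2.88 RPKM in Tfh Tomato+ cells. Il4 averaged 42.3 ± 5.71 RPKM in spleen ZsGreen+ cells, below 124 ± 28.3 RPKM in Tfh Tomato- and 76.5 ± 6.64 RPKM in Tfh Tomato+ cells and above 2.60 ± 0.888 RPKM in non-Tfh Tomato+ cells. Bcl6 averaged 10.8 ± 1.06 RPKM in spleen ZsGreen- cells, below its lowest lymph node mean of 22.8 ± 1.28 RPKM, in non-Tfh Tomato+ cells. Its Tfh Tomato+ mean was 103 ± 10.7 RPKM. Tox2, Cxcr5 and Tcf7 averaged 44.1, 84.4 and 328 RPKM in spleen ZsGreen- cells. These means lay above non-Tfh Tomato+ (28.3, 41.7 and 173 RPKM) and below non-Tfh Tomato- cells (51.6, 106 and 336 RPKM). The Tfh Tomato+ means were 173, 309 and 369 RPKM.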

How the data were processed

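Each library was deposited as a table of 29257 transcript rows with a read count, a transcript length and an RPKM value. The submitters' processing notes name CASAVA 2.18, Bowtie2, SICER 1.1, edgeR and the mouse build mm9, without saying which served the RNA tables; the counting rule and its use of strand are not stated by them. The headers of the 4 spleen tables exchange the words for reads and for length: the deposited counts stand under the word for size, and the deposited RPKM values equal those counts per kilobase up to 1 factor per library. Counts and deposited RPKM were therefore read by content. No coordinates were taken from mm9.

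For each of 22878 symbols the row with most reads was kept (4019 symbols had more than 1). Counts were tested with edgeR 4.0.16 (R 4.3.3; TMM factors, filterByExpr, quasi-likelihood F test, Benjamini-Hochberg adjustment over 12918 genes, threshold 0.05), with the standard error taken as the log2 fold change over the root of F. Alternatives used DESeq2 1.42.0, limma 3.58.1 on log2 RPKM, other factors and filters, each library left out, and other designs. On simulated counts with known changes, most changed genes were recovered, but the share of unchanged genes among the calls was above the threshold, so adjusted p-values near it are to be read with caution. An exact permutation test of 2 against 2 libraries cannot go below p = 0.333, so no such test was used.

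The members, gene lists and tests were chosen with earlier results of these data known. Genes named are those of the gates and of T-bet biology, the 15 largest rises and falls among called genes without overlap that reached 5 RPKM in 1 group, the 10 highest and the 10 with the largest difference in RPKM, and members of the gene lists. The list members given as examples were picked after their values were seen, and 6 of the 62 lists, described among the other observations, were chosen after their members' values were seen. Libraries of a group differed by more than counting noise, so none is a repeat deposit of another; that does not show separate animals. Some genes are not reported here.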

Additional observations from a re-analysis of the deposited data

How the results depend on the processing

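The 3074 calls numbered between 2555 and 3681 under other tools, scalings, filters and row choices. All 3074 had the same sign in every setting that fitted them. The filter of 1 RPKM in 2 libraries and both limma settings fitted 10714 of the 12918 genes. Of the genes named but not called, 2 changed sign and were called on leaving out a library: Ddx3y had -0.74 without ZsGreen+ replicate 1 and 0.39 without ZsGreen+ replicate 2, and Klf3 had 0.32 without ZsGreen- replicate 1 and -0.67 without ZsGreen- replicate 2, all as log2 fold changes. The exceptions in number were the fit of all 12 RNA libraries, with 63 calls (25 higher, 38 lower, 58 at least 2-fold), the test against a minimum fold of 1.5, with 962 calls (469 higher, 493 lower), and limma on log2(RPKM + 1), with 510 calls of at least 2-fold. That last setting also tested only genes of at least 1 RPKM in 2 libraries; with that filter alone edgeR gave 799 such calls, and limma on log2(RPKM + 0.1) gave 778. The cause of the first was not tested. Leaving out each library gave 2523 to 3264 calls, 1187 to 1595 higher, 1278 to 1669 lower and 947 to 1116 of at least 2-fold, and 1909 calls were kept in every such fit; a lone library is then assumed to vary like the other group. Same-numbered libraries of the 2 groups deviated together only weakly (correlation 0.119 over 12918 genes). The Y-linked genes given below, however, had more reads in replicate 1 than in replicate 2 of both groups. No label says that a number marks a shared animal or day, and this was not tested. With the replicate block the count was 3359 (1635 higher, 1724 lower, 1088 at least 2-fold). No scaling moved the median log2 fold change by more than 0.038. With 2 libraries per group, genes of few reads are limited by counting error. Of the 262 called genes named, 254 stayed called without each library in turn; DESeq2 lost 3, limma 5 and the replicate block 0. Of the list counts, 10 moved by over 1.5 times with DESeq2, 15 with limma, 7 with the replicate block and 13 to 23 without a library.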

Other observations

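The gene families given here were chosen after their members' values were seen, so their counts are descriptions. Of 18 tested clock genes 9 rose and 4 fell. Nr1d1, which encodes the clock repressor REV-ERB alpha, measured 7.49 and 10.1 RPKM in the ZsGreen+ libraries, against 1.71 and 2.33 RPKM in the ZsGreen- libraries (log2 fold change 2.08 ± 0.19), and its relative Nr1d2 5.86 and 7.04 RPKM in the ZsGreen+ libraries, against 2.35 and 2.89 RPKM in the ZsGreen- libraries (1.25 ± 0.14). The groups did not overlap for either. Per3 (log2 1.35 ± 0.27) and Per2 (0.95 ± 0.21), period genes of the negative limb, also rose, while the repressor gene Cry1 had -0.603 ± 0.11. The core activator genes Arntl (log2 0.25 ± 0.09) and Clock (0.37 ± 0.13) were not called. The times at which cells were taken are not given in the sources used here.

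Enzymes that shape surface sugars moved in both directions. Of 15 tested sialyltransferase genes 5 rose and 8 fell. St6gal1, which adds sialic acid in the alpha-2,6 linkage, measured 23.9 and 21.4 RPKM in the ZsGreen+ libraries, against 54.9 and 59.2 RPKM in the ZsGreen- libraries (log2 -1.37 ± 0.09). St3gal1, which caps core O-glycans, had log2 -1.22 ± 0.10, whereas St3gal6, described above, was higher. Of 27 tested genes of heparan and chondroitin sulphate 7 rose and 0 fell, or 1 fell without either replicate 2. Sulf2 encodes an enzyme that removes sulphate from heparan chains, Hs3st3b1 an enzyme that adds sulphate to heparan chains and Chst15 an enzyme of chondroitin sulphate. Sulf2 measured 7.73 and 9.41 RPKM in the ZsGreen+ libraries, against 0.670 and 0.925 RPKM in the ZsGreen- libraries (log2 3.38 ± 0.17). Hs3st3b1 measured 14.8 and 15.6 RPKM in the ZsGreen+ libraries, against 3.17 and 3.30 RPKM in the ZsGreen- libraries (2.19 ± 0.09). Chst15 measured 11.2 and 14.6 RPKM in the ZsGreen+ libraries, against 2.85 and 2.98 RPKM in the ZsGreen- libraries (2.10 ± 0.13). All 3 were higher in each ZsGreen+ library.

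Cyclic nucleotide phosphodiesterase genes, whose products break down cAMP or cGMP, rose in 6 of 14 tested cases and fell in 0, or in 1 without ZsGreen+ replicate 2. Pde3b measured 19.0 and 21.0 RPKM in the ZsGreen+ libraries, against 4.19 and 5.05 RPKM in the ZsGreen- libraries (log2 2.07 ± 0.11), and Pde2a 41.6 and 47.7 RPKM in the ZsGreen+ libraries, against 19.9 and 19.97 RPKM in the ZsGreen- libraries (1.12 ± 0.08). Of 11 tested phospholipid flippase genes 3 rose and 5 fell, with 2 falling without ZsGreen+ replicate 1 or ZsGreen+ replicate 2 and 3 without ZsGreen- replicate 1. Beside Atp8a2, the riser Atp8b4 measured 9.42 and 8.49 RPKM in the ZsGreen+ libraries, against 1.18 and 1.24 RPKM in the ZsGreen- libraries (log2 2.85 ± 0.11).

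Reads of Xist, transcribed in female cells, and of Y-linked genes were both present in all 4 libraries. Xist had 7844 and 8402 reads in the ZsGreen+ libraries and 6391 and 8896 reads in the ZsGreen- libraries, and the Y-linked gene Ddx3y 1319 and 484 reads in the ZsGreen+ libraries and 1005 and 744 reads in the ZsGreen- libraries. Ddx3y, Eif2s3y, Kdm5d and Uty had more reads in replicate 1 than in replicate 2 of both groups, and none was called between the groups.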
